A study of Rattus norvegicus with 4 samples.

Results

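Blood clotting involves genes with opposed actions, and 7 of them are described here in rat kidney allografts: F3, Tfpi, Thbd, Procr, Plat, Plau and Plaur. They were chosen by gene symbol, as genes that start, restrain or dissolve a clot, and they have 20 features among the 14871 genes with 1 or more named features on the arrays. Each array held RNA of a Lewis (Lew) rat's allograft after the ApoE-mimetic peptide at 6 mg/kg in one dye and RNA of an allograft after a control peptide in the other. Both peptides were injected intravenously each day from the transplantation on, and the grafts were taken on day 4. All 4 arrays therefore carry peptide-treated allografts in both channels, and neither native kidneys nor untreated grafts were analysed here. The labels call the 4 replicates biological and do not give the donor strain, age or sex. RNA came from slices of whole graft, so fewer cells of a type and less RNA per cell cannot be told apart.

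Tissue factor, encoded by F3, is the cell-surface receptor that starts coagulation by binding factor VII, and in the healthy kidney it is known from glomerular cells. Tissue factor pathway inhibitor (Tfpi) blocks that complex on the endothelium, while thrombomodulin (Thbd) and the endothelial protein C receptor (Procr) turn thrombin toward activation of the anticoagulant protein C. Tissue-type plasminogen activator (Plat) and urokinase (Plau) convert plasminogen to the clot-dissolving plasmin, and Plaur encodes the receptor that holds urokinase at the cell surface. Endothelial injury in rejecting grafts is known to go with loss of thrombomodulin and deposition of fibrin.

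Upstream sequence was held for 4 of the 7 genes in RefSeq's table for the GRCr8 assembly. The 3 windows shown belong to urokinase, its receptor and the protein C receptor. Each is the 250 bases before the annotated start, 5′ to 3′ on the gene's strand. Capitals mark an AP-1 site (TGANTCA), bound by the stress-induced Fos and Jun factors, or a GC box (GGGCGG), bound by Sp1, each searched on both strands.
Plau, chr15:3511988-3512237, minus strand: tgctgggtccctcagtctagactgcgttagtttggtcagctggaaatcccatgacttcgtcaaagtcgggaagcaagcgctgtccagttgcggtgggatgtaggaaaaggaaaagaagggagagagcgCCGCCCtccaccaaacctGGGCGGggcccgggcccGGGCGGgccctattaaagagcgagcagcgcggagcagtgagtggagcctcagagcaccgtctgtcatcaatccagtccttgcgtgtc
Plaur, chr1:89181113-89181362, plus strand: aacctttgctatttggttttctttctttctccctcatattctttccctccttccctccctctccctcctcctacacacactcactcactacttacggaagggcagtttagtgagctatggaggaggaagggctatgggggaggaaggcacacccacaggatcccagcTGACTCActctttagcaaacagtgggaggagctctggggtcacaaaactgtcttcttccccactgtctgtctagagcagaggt
Procr, chr3:164714477-164714726, plus strand: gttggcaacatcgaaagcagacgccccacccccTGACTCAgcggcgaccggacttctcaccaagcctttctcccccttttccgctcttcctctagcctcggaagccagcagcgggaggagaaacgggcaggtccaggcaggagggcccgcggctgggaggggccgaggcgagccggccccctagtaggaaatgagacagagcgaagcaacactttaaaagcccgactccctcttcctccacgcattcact
The Plaur and Procr windows each held 1 AP-1 match and 0 GC boxes, and the Plau window held 3 GC boxes and 0 AP-1 matches. The windows of Tfpi, not shown, each held 0 AP-1 matches, with 0 GC boxes in one and 1 in the other. Among all 33469 windows of this length in the table, 6.34% held the AP-1 letters and 30.5% the GC box, and no match overlapped another in the 3 windows shown. A match describes the letters only.

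The deposited columns give a ratio between the channels of each array, taken as log2, and hold no levels. Whether the kidney's own marker genes were present can therefore not be read from them. The median gene lay at -0.22, -0.04, -0.11 and -0.55 on replicates 1 to 4, and it was subtracted from each array, so every array value below is relative to that array's median gene. Replicate 4 stands apart, with an SD over genes of 1.09 against 0.80 to 0.82 on the other arrays, and its median ratio shifted across the array grid, with -0.80 in the first 10 of 85 columns and 0.40 in the last 10. The ApoE sample was the Cy5 one on replicates 1 and 3 and the Cy3 one on the other two. The labels do not say which channel is the numerator. Although replicates 1 and 3 share a dye orientation, Pearson's r between them was -0.238 over all features. Over the 13363 features with no sign of being dim or saturated it was -0.657, and over these it was -0.04 between replicates 2 and 4, the other pair of 1 orientation. Between replicates of opposite orientation it was 0.39 for 1 and 4, 0.42 for 2 and 3, -0.43 for 1 and 2 and -0.27 for 3 and 4. Features are not independent replicates. No direction is settled for these columns. Array values are given with the deposited sign, and each fitted ratio of ApoE over control is given under both readings: columns as Cy5 over Cy3, or columns that the authors had already turned to ApoE over control. With Cy3 as numerator, or columns turned to control over ApoE, every sign would be opposite.

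The values of these genes lay within the bulk of all genes on every array. Of their 28 values, 0 lay among the largest 10% of all genes in size on that array, and 8 were larger than the median size. The 2 largest in size were Thbd on replicate 4, at -1.27, and Plau on replicate 2, at 1.10, which was the highest by rank, larger in size than 85.5% of genes. Mean sizes over the 4 arrays ran from 0.19 for Plat to 0.62 for Thbd and 0.69 for Plau, against a median of 0.56 over all genes.

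**Figure D1:**
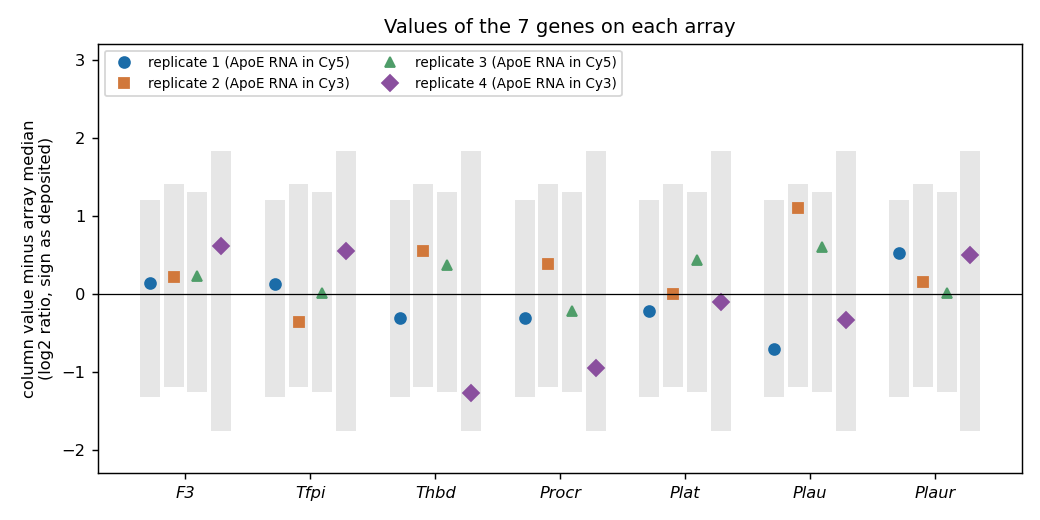
Values of the 7 genes on each of 4 arrays, as the deposited log2 ratio minus the array's median gene (y axis, sign as deposited). Points are single arrays, coloured by replicate, and grey bars span the central 90% of all genes on that array; all 28 points lie within their bars, and F3 and Plaur lie above 0 on every array.

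F3 had small values on one side of the median gene. It had 0.14, 0.21, 0.23 and 0.61 on replicates 1 to 4, from a single feature that was neither dim nor saturated. All 4 columns were positive, whichever dye the ApoE RNA carried. As deposited, before centring, F3 was at -0.08 on replicate 1 and between 0.07 and 0.17 on the others, so its position above 0 on replicate 1 rests on the centring. The fitted ratio was -0.11 (SE 0.24, n = 4) with columns as Cy5 over Cy3 and 0.30 (SE 0.24) with columns already turned, where the 4 arrays averaged 0.30 ± 0.22 (SD, n = 4). Neither passed, with limma adjusted p of 0.9999 and 0.9996. Without centring these ratios were -0.048 and 0.067, and with the grid trend removed the first was -0.21.

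Tfpi, the inhibitor of the tissue factor complex, had 0.13, -0.36, 0.0010 and 0.54 on replicates 1 to 4. Its 2 features went apart on replicate 2, at -1.06 and 0.34, and on replicate 4, at 1.15 and -0.06. The feature at 1.15 lies in grid column 82, where the local median ratio of replicate 4 was 1.12 above the array's median gene, and with the grid trend removed the gene stood at -0.01 there. The feature at 1.15 was dim or saturated on every array, and the other feature had 0.23, 0.34, -0.13 and -0.06 on replicates 1 to 4. In an alternative, dim or saturated features of all genes were left out and each array was centred anew on the 6731 genes kept. Tfpi then had 0.43, 0.37, -0.11 and 0.04. The new centring also moved genes that lost no feature, such as F3 on replicate 1 from 0.14 to 0.34. Over both features, the fitted ratio with columns as Cy5 over Cy3 was -0.01 (SE 0.28, n = 4). It became 0.018 without replicate 3 and 0.21 without replicate 4. With columns already turned it was 0.08 (SE 0.28), and -0.15 without replicate 4.

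Thbd spanned the widest range of the anticoagulant receptors. It had -0.32, 0.55, 0.36 and -1.27 on replicates 1 to 4, from 1 feature that was neither dim nor saturated. Replicates 1 and 4 lay below the median gene and replicates 2 and 3 above it, so arrays of the same dye orientation took opposite sides. The value of replicate 4 became -0.73 with the grid trend removed. The fitted ratio was 0.19 (SE 0.39, n = 4; 2 of 4 arrays positive) with columns as Cy5 over Cy3 and -0.17 (SE 0.39) with columns already turned. Without centring the second was -0.40. Replicate 4 set both signs, since the ratios without it were -0.26 and 0.28. Without replicate 1 the ratio with columns already turned was 8.5e-05.

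Procr had -0.31, 0.38, -0.22 and -0.95 on replicates 1 to 4, as the mean of 3 features. Both features that were neither dim nor saturated were above the median gene on replicates 2 and 3 and below it on replicates 1 and 4, the same sides as Thbd. The third feature, dim or saturated on every array, was below it on all 4 and moved the mean of replicate 3 below 0. The other features were at -0.04 and -0.61 on replicate 1 and at -0.56 and -0.84 on replicate 4. With dim or saturated features of all genes left out and the arrays centred anew, as for Tfpi, Procr had -0.12, 0.71, 0.17 and -0.60. Over all 3 features the fitted ratio was 0.0077 (SE 0.32, n = 4) with columns as Cy5 over Cy3, where only replicate 4 was on the ApoE side. Without replicate 4 that ratio was -0.33, and without replicate 3 it was -0.015. With columns already turned it was -0.28 (SE 0.32), 0.058 without replicate 4 and -0.51 without centring. With dim or saturated features of all genes left out and the arrays centred anew, that ratio was 0.042. The part of the third feature in this change was not tested.

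Plat, the tissue-type activator, had 10 features of 1 transcript accession, and its values were near the median gene on 3 arrays. The means were -0.22, -0.0081, 0.43 and -0.10 on replicates 1 to 4. On replicate 3, 8 of 10 features lay above the median gene, with a range from -0.18 to 1.78, and on replicates 1, 2 and 4 these counts were 5, 2 and 5. The SD between the 10 features was 0.43, 0.18, 0.58 and 0.41, against medians of 0.50, 0.52, 0.54 and 0.80 for the 232 genes with 8 or more features. The 4 array means of Plat, in turn, had an SD of 0.29 with the deposited signs. All 10 features held values shared with other features on some array, so all counted as dim or saturated. Its fitted ratio was 0.08 (SE 0.26, n = 4) with columns as Cy5 over Cy3 and 0.02 (SE 0.26) with columns already turned. Without replicate 3 these were -0.084 and -0.14.

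**Figure D2:**
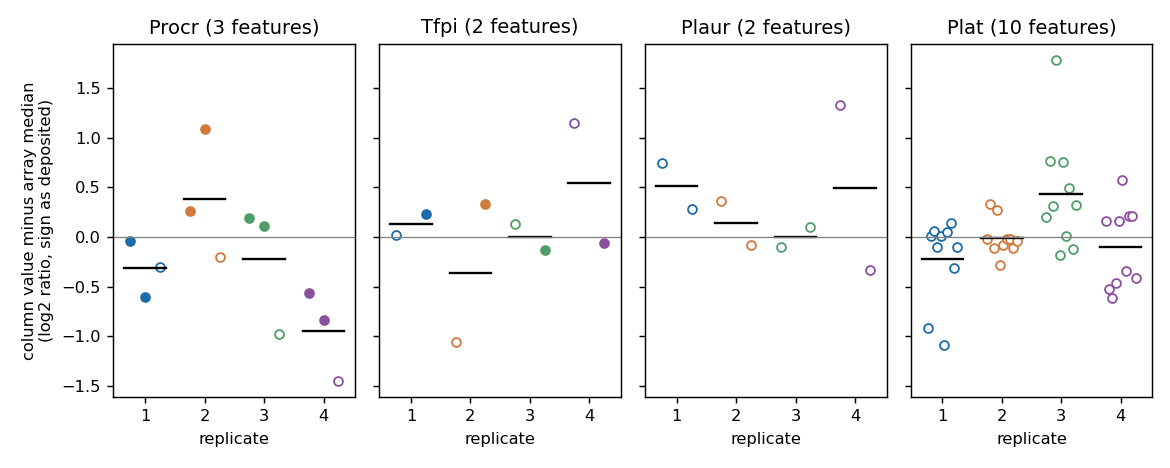
Single features of the 4 genes with more than 1 feature on each array (x axis, replicate), as log2 ratio minus the array's median gene, sign as deposited. Filled points are features neither dim nor saturated, open points the rest, and bars are the gene's mean; the features of Plaur lie at 1.33 and -0.33 on replicate 4, and Plat's highest feature is at 1.78 on replicate 3.

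Plau, encoding urokinase, had the largest values of the group on replicates 1 to 3. It had -0.71, 1.10, 0.60 and -0.34 on replicates 1 to 4, from 1 feature that was neither dim nor saturated. The sides were again those of Thbd, with replicates 1 and 4 below and replicates 2 and 3 above. The fitted ratio was -0.22 (SE 0.39, n = 4; 95% interval -1.25 to 0.82) with columns as Cy5 over Cy3 and 0.16 (SE 0.39) with columns already turned. The first of these became 0.11 without replicate 1 and 0.14 without replicate 2. The other became -0.20 without replicate 2 and -0.17 without replicate 3.

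Plaur, the urokinase receptor, did not share the sides of its ligand. It had 0.51, 0.15, 0.0026 and 0.50 on replicates 1 to 4. All 4 means lay above the median gene, as for F3, but the 2 features disagreed in sign on replicates 2, 3 and 4, with 1.33 and -0.33 on replicate 4, and both were dim or saturated on some array. The deposited values of replicates 3 and 4 were -0.11 and -0.05, so their position above 0 rests on the centring too. For Plaur the fitted ratio was -0.03 (SE 0.26, n = 4; 0.097 without replicate 3 and 0.057 without replicate 4) with columns as Cy5 over Cy3 and 0.29 (SE 0.26) with columns already turned, where the arrays averaged 0.29 ± 0.26 (SD, n = 4). The second was 0.061 without centring.

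None of the 7 genes passed the comparison of ApoE with control. With limma over 14847 genes, 0 members had an adjusted p under 0.05 in either reading, where 0% of all genes did. At an unadjusted p under 0.05 there were 503 genes with columns as Cy5 over Cy3 and 455 with columns already turned, and 0 of the 7 in both. The members' median ratio was -0.01 with columns as Cy5 over Cy3, against -0.02 for all genes tested, and 0.08 with columns already turned, against -0.02. The median size of their fitted ratios was 0.08 against 0.22 for all genes in the first reading and 0.17 against 0.22 in the second. The 95% intervals together reached from -1.25 to 1.23 and from -1.21 to 1.20 under these readings. These are intervals of single genes, not adjusted for the number of genes, and are not a limit of detection. A larger ratio could fail too, such as 1.25 for Fga with columns already turned (limma adjusted p 0.9996). With 4 arrays, differences of these sizes and above could be missed, and an exact sign-flip test could not go below 0.125.

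**Figure D3:**
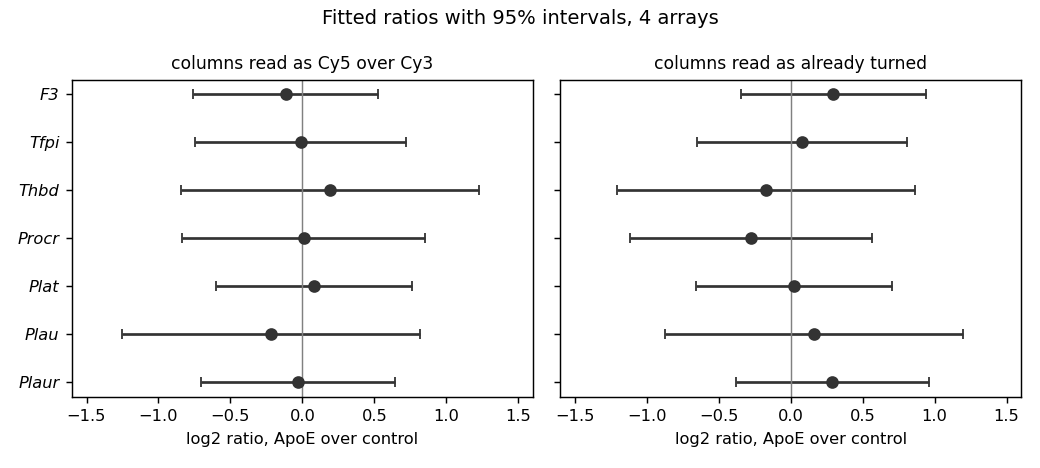
Fitted log2 ratios of ApoE over control (x axis) for the 7 genes under both readings of the columns, from limma on 4 arrays. Points are estimates and bars 95% intervals; every interval includes 0, and the estimates lie between -0.28 and 0.30.

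The sign counts show how the readings bear on these genes. With columns as Cy5 over Cy3, 0 of 7 genes kept 1 sign on all 4 arrays, where 10% of all genes did (1491 of 14847). With columns already turned, F3 and Plaur did, 2 of 7, where 11.4% of all genes did, and without centring neither of these did. Thbd and Plau, 2 of 7, had replicates 1 and 4 on one side and replicates 2 and 3 on the other, a pattern singled out after the values were seen and held by 17.6% of all genes. With 7 genes, counts of 2 beside these shares are given as a description only.

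Members fell into unlike array patterns. The closest pair was F3 and Plaur, with a root mean square difference of 0.23 over the 4 arrays and the same side on 4 of 4. Thbd and Procr, of the protein C pathway, were 0.34 apart and on the same side on 3 of 4 arrays, and Thbd and Plau were 0.59 apart with 4 of 4. Tissue factor and its inhibitor were 0.31 apart and on the same side on 3 of 4 arrays, while urokinase and its receptor were 0.93 apart with 2 of 4. The root mean square difference also grows with the size of the values. Mean sizes were 0.30 for F3, 0.26 for Tfpi and 0.29 for Plaur, against 0.69 for Plau. Among the 6731 genes with a feature neither dim nor saturated, the 2 genes nearest to Thbd by this measure were Vwf, at 0.09, and Gli4, at 0.13. Vwf, encoding von Willebrand factor, had -0.17, 0.59, 0.28 and -1.32 on replicates 1 to 4. Nearest to Procr were Bles03 at 0.11 and Erg at 0.12, and nearest to Plau were Slc22a21 at 0.08 and Nit1 at 0.10. F3 lay nearest to Jrkl and Rps12, Tfpi to Rps23 and Nmnat3, Plat to Zwint and Adk, and Plaur to Rad21 and Usp3, at distances from 0.024 to 0.084. Genes with small values have many neighbours at such distances.

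Marker genes of several cell types also differed between the channels of the same arrays. The median of 11 endothelial markers was -0.65, 0.41, -0.0030 and -0.95 on replicates 1 to 4, on the side of Thbd on replicates 1, 2 and 4. Genes of that list ranged from -1.50 to 2.04 on replicate 4, where 4 of 11 were above 0. Proximal tubule markers, 10 genes, had medians of -0.77, 1.86, 1.16 and -1.02, the sides of Thbd and Plau on all 4 arrays, with 2, 9, 8 and 4 of 10 genes above 0 and a range from -5.15 to 1.12 on replicate 4. The 6 podocyte markers had -0.21, 0.23, 0.23 and -0.81, again on these sides, with 2, 3, 5 and 1 of 6 above 0. Monocyte and macrophage markers, 10 genes, had the opposite sides at 0.54, -0.50, -0.82 and 0.51, with 10, 2, 2 and 10 of 10 genes above 0. The 11 T cell markers had 0.67, -1.61, -1.21 and -1.43, with 11, 1, 0 and 1 of 11 above 0. The 7 neutrophil markers had 0.29, -0.41, -0.49 and 1.25, but their genes were split. On replicates 1 to 4, 4, 3, 2 and 4 of these 7 were above 0, with a range from -1.42 to 2.24 on replicate 4. The 3 platelet markers measured had -0.19, 0.68, -0.20 and 0.52, and 4 smooth muscle and mesangial markers -0.10, 0.31, -0.23 and -0.26. The part of these cell types in the values of Thbd, Procr and Plau was not tested.

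**Figure D4:**
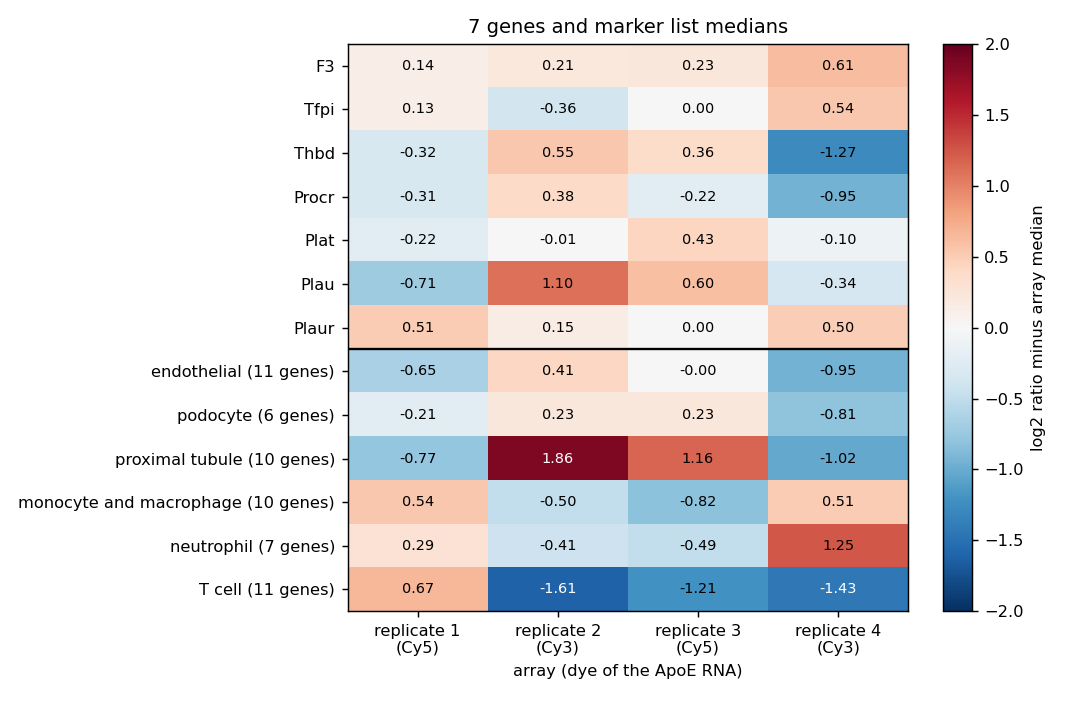
The 7 genes (upper block) and the median of 6 cell type marker lists (lower block) on each array, as log2 ratio minus the array's median gene, printed in each cell and coloured from -2 to 2 with the sign as deposited. Thbd and Plau share the signs of the proximal tubule list on all 4 arrays, and the monocyte and macrophage list has the opposite signs.

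Other genes of clotting and fibrinolysis did not pass either: of 40 measured genes on 3 lists, 0 did in either reading, where 0% of all genes did. Of 15 coagulation factor genes, 6 had a fitted ratio above 0 with columns as Cy5 over Cy3 and 7 with columns already turned, with list medians of -0.12 and -0.01. The substrate gene Fga, encoding the fibrinogen alpha chain, had 0.85, 2.17, 0.79 and 1.17 on replicates 1 to 4, all above the median gene. Its fitted ratio was -0.42 (SE 0.29, n = 4) with columns as Cy5 over Cy3 and 1.25 (SE 0.29) with columns already turned. F7, whose product binds tissue factor, had -0.14, -0.57, -0.94 and -1.32, all below the median gene, with ratios of 0.20 (SE 0.30) as Cy5 over Cy3 and -0.74 as already turned. For both genes the sign of the ratio depends on the reading. It does so too for Klkb1, encoding prekallikrein of the contact system, with -0.29 (SE 0.44) as Cy5 over Cy3 and 1.02 as already turned, for F9, an activator of factor X, with 0.69 (SE 0.30) and -0.71 in the same order of readings, and for F10 with 0.73 (SE 0.32) and -0.66. The kininogen gene Kng1 had -1.19 (SE 0.32) as Cy5 over Cy3 and -0.01 as already turned. The fibrinogen gamma chain gene Fgg had 0.60 (SE 0.28) and 0.63. The single features of F7, Klkb1, F9 and Kng1 were dim or saturated on some array.

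Among 13 genes of anticoagulants and protease-activated receptors, 7 and 10 had ratios above 0 in the readings as Cy5 over Cy3 and as already turned. The list medians were 0.08 and 0.20, where all genes tested had -0.02 in both. On replicates 1 to 4, 5, 10, 12 and 6 of the 13 lay above the array's median gene, which is the middle of all genes by construction. Serpina5, the protein C inhibitor, had -0.56, 2.10, 1.56 and 1.58 on replicates 1 to 4, and ratios of -0.67 (SE 0.43, n = 4) as Cy5 over Cy3 and 1.17 (SE 0.43) as already turned. Tfpi2, a relative of Tfpi that inhibits plasmin, had 0.53, 0.12, 3.31 and 1.62, and ratios of 0.53 (SE 0.57) and 1.40 in the same order of readings. The thrombin and trypsin-like protease receptor genes F2rl1, F2rl2 and F2rl3 had -0.64, 0.59 and 0.52 with columns as Cy5 over Cy3, and 0.64, -0.31 and -0.29 with columns already turned. The single features of Serpina5, Tfpi2 and these receptors were dim or saturated on some array.

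Of 12 further fibrinolysis genes, 2 had ratios above 0 with columns as Cy5 over Cy3 and 7 with columns already turned. The list medians were -0.34 and 0.03, where all genes tested had -0.02 in both readings. At an unadjusted limma p under 0.05 there were 0 of the 12 in either reading. The protease scavenger A2m had -0.59 (SE 0.34, n = 4) as Cy5 over Cy3 and 0.02 as already turned. Cpb2, encoding an inhibitor of fibrinolysis, had 0.64 (SE 0.37) and -0.45 in the same order of readings, and the clearance receptor Lrp1 had -0.37 (SE 0.32) and 0.49. Vtn, encoding the adhesive plasma protein vitronectin, had -0.78 (SE 0.67) and -0.65. Thbs1, encoding the matrix protein thrombospondin, had -0.34 (SE 0.36) and 0.73, and Plg, the precursor of plasmin, 0.49 (SE 0.57) and -0.58. Plg itself ranged from -2.09 on replicate 4 to 1.15 on replicate 1. Of these 6 genes, A2m alone had a feature neither dim nor saturated.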

How the data were processed

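A two-colour Agilent kit labelled total graft RNA with both dyes, swapped between replicates, per the labels' protocols. The deposited table holds 1 value per feature and array, taken as a log2 ratio of the channels. For the log base, background correction, normalization and direction, nothing is stated in the labels or the table.

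Of 45220 features, 25353 bear 1 gene symbol, 48 several and 19819 none; 25306 of the first were matched by gene number to RefSeq (GRCr8), which changed 1 symbol. A gene's value is the mean over its features minus the array's median gene. A feature counted as dim or saturated where more than 2 features held its value on any array, leaving 13363. Shared values do not tell dim from saturated, and "dim feature" stands for either. Of the 7 genes, 5 kept a feature. Where dim features were left out, each array was centred anew on the median of the 6731 genes kept. Of 14871 genes, 14847 had values on all arrays and entered the fit, made by limma 3.58.1 (lmFit, eBayes; R 4.3.3) with a treatment and a dye coefficient, two-sided, Benjamini-Hochberg adjusted over all genes, threshold 0.05. The test was run on simulated data first. Beside the 7 genes, the text names up to 4 genes per list and reading with the smallest unadjusted p, and the 2 genes nearest to each member. Members, lists and rules were chosen with earlier results of these data known. Alternatives changed centring, dye term, array scale, grid trend (85 columns taken as the grid width), dim features, the mean over features, or left out 1 replicate; the gap of 1 array from the rest was also recomputed without centring, without the grid trend and without dim features. Precision is limited by the 4 arrays; no scan date or slide was used.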

Additional observations from a re-analysis of the deposited data

Results flagged for a closer look

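Procr had one array far from the other 3 with columns as Cy5 over Cy3. Turned to ApoE over control in that reading, replicate 4 stood at 0.95, while the other 3 arrays lay between -0.38 and -0.22. The gap to the nearest of them was 0.879 of the whole range, above Dixon's 95% critical value for 4 samples. Of 14 sets of 4 values examined, 7 genes in each of the readings, this was 1, and chance flags about 1 in 20 such sets. Replicate 4 also has the widest spread over genes. With dim features of all genes left out and the arrays centred anew, Procr in that reading had -0.12, -0.71, 0.17 and 0.60 on replicates 1 to 4. The gap was then 0.451 of the range, under the critical value. It was 0.847 with the grid trend removed and 0.902 without centring. With the grid trend removed, F3 with columns already turned was above the critical value too, at 0.881, with 0.99 on replicate 4. These alternatives were chosen after seeing the data. All 3 features of Procr were below the median gene on replicate 4.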

How the results depend on the processing

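Under each of the 10 alternatives, 0 genes were called in either reading, and the lowest adjusted p of any of the 7 genes was 0.593. With all replicates kept, 67 of 80 fitted ratios of the 7 genes kept their sign and 13 changed it. With columns as Cy5 over Cy3, Procr became -0.11 with scaled arrays and -0.015 without dim features; Tfpi became 0.054 without centring, 0.053 with scaled arrays and 0.12 with the grid trend removed; Plaur became 0.036 without centring and 0.026 with scaled arrays. With columns already turned, Procr became 0.042 without dim features; Tfpi became -0.15 without centring and -0.057 with the grid trend removed; Plat became -0.21 and -0.0040 under these; Plau became -0.067 without centring. The count of members with 1 sign in that reading went to 1 without centring, an alternative chosen after seeing the data, and that gene was Tfpi. Before centring the median gene was below 0 on every array, and the share of all genes with 1 sign was not computed there. That count therefore has no share to be read against.

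Leaving out 1 replicate changed the sign in 17 of 56 fits. With columns as Cy5 over Cy3 the ranges were -0.22 to -0.014 for F3, -0.26 to 0.65 for Thbd, -0.33 to 0.34 for Procr, -0.24 to 0.21 for Tfpi, -0.084 to 0.25 for Plat, -0.58 to 0.14 for Plau and -0.16 to 0.097 for Plaur. With columns already turned they were 0.20 to 0.40, -0.62 to 0.28, -0.61 to 0.058, -0.15 to 0.30, -0.14 to 0.19, -0.20 to 0.52 and 0.16 to 0.42, in the same order of genes. F3 kept its sign in both readings and Plaur in the second, but without centring the ratios as already turned were 0.067 for F3 and 0.061 for Plaur, and -0.40 for Thbd and -0.51 for Procr. Plat and Plaur had no value without dim features. The cause of these changes was not tested. The table gives no signal over background, which limits what can be said of dim features.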
